A study of Mus musculus with 2 samples.

Results

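The genes described here encode the proteins of the cytosolic ribosome, the particle that makes nearly all of a cell's protein. They were chosen by name, with no measured value: the members are the mRNA rows whose symbol is Rpl or Rps followed by a number, with an optional a, x or y and a further digit, together with Rplp0, Rplp1, Rplp2 and Rpsa. The rule gave 77 of the 46095 rows of the table (22673 of which are mRNA rows). Of these, 46 code for proteins of the large subunit and 31 for proteins of the small subunit. Rps3a2 and Rps3a3 have names that match but are typed as noncoding RNA, and Fau, Rack1 and the paralogues with names such as Rpl22l1 lie outside the rule.

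RNA was sequenced from sorted cells of a mouse acute myeloid leukaemia, a cancer of immature myeloid blood cells, in 2 libraries. One library is labelled P2x7-KO and the other wild type. P2x7, encoded by P2rx7, is a cation channel opened by extracellular ATP. In both groups the cells were leukaemia-initiating cells that carry Mac1, the product of Itgam, and c-Kit, the product of Kit, on their surface, taken from bone marrow, with the strain given as C57BL/6 and the age as 8 weeks. The titles of the samples end in KD for P2x7-KO and in Scr for wild type. The oncogene or agent that caused the leukaemia, the part of P2rx7 that was altered and the number of mice behind each library are not stated in the labels.

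Each group holds 1 library, so genotypes could not be tested against each other and no p-value is given. The libraries held 12435916 counts (P2x7-KO) and 12456212 counts (wild type). A ratio divides the TMM-scaled count of the library labelled P2x7-KO by that of the library labelled wild type, and is given with its exact 95% counting interval. These intervals cover counting error only, not differences among mice, cell sorts or preparations. A gene was called when it differed at least 2-fold and its interval excluded equality, among the 13363 genes whose counts reached 20 over the pair of libraries, and all 77 members were among these. CPM are counts per 1000000 on the same scale.

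P2rx7 itself had 543 counts in the library labelled P2x7-KO and 229 in the library labelled wild type. The ratio was 2.27 (1.94 to 2.66), so the count was higher in the library labelled P2x7-KO. With the altered part of P2rx7 not stated, counts of the whole gene cannot show whether the genotype label is right. The labels are therefore used only as names of the libraries. Markers of the sort were present in both libraries: the 6 genes Itgam, Kit, Myb, Mpo, Hoxa9 and Meis1 summed to 2746 CPM in the library labelled P2x7-KO and 2424 CPM in the library labelled wild type. They were not at equal levels: Itgam had a ratio of 2.90 (2.77 to 3.05) and Kit one of 1.47 (1.32 to 1.64). Of the 6 genes, 5 had ratios above equality and 1 below it.

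A ribosome is built from a small subunit, which reads the mRNA, and a large subunit, which joins amino acids and passes the growing chain through an exit tunnel. Its proteins are needed in nearly equal numbers, and in vertebrates their mRNAs share a 5′ terminal oligopyrimidine (TOP) tract, a run of C and T bases that starts at the cap and through which the mTOR pathway sets their translation. In bone marrow these genes are known from Diamond-Blackfan anaemia, in which loss of one copy of a single ribosomal protein gene impairs red cell production.

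The stretch around the start of transcription is shown for a pair of members among those with the lowest ratios, Rpl37a and Rpl38, and for the pair with the highest, Rpl5 and Rpl4, since the start is where a TOP tract lies. Each sequence runs from 60 bases before to 10 bases after the start annotated by RefSeq in GRCm38.p6, on the plus strand, and capitals mark the longest run of C and T that begins no more than 30 bases before that start. The windows are chr1:72711200-72711269 for Rpl37a, chr11:114668520-114668589 for Rpl38, chr5:107900468-107900537 for Rpl5 and chr9:64173327-64173396 for Rpl4.
Rpl37a: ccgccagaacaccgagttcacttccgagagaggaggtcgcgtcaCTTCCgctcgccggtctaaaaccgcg
Rpl38: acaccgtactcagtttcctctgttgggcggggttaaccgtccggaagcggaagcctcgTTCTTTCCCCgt
Rpl5: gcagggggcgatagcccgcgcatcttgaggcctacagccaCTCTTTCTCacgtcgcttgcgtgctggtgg
Rpl4: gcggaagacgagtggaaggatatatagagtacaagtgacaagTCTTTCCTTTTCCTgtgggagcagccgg

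The marked run was 5 bases long in Rpl37a, 10 in Rpl38, 9 in Rpl5 and 14 in Rpl4. The GENCODE starts of Rpl37a and Rpl38 lie 30 and 29 bases from the RefSeq starts, past the end of the printed windows. Those of Rpl5 and Rpl4 lie 26 and 12 bases away, inside the printed windows. In Rpl37a, Rpl5 and Rpl4 the marked run also ends before the RefSeq start, and only that of Rpl38 spans it. The run lengths of the low and high pairs therefore cannot be compared. A promoter window of 250 bases before to 50 after the start was found in the RefSeq table for 57 of the 77 members. Of these 57, 48 (84.2%) had a run of at least 8 pyrimidines within 50 bases of the start, against 34.7% of 16522 protein-coding promoters. A C at the annotated start itself, followed by 4 pyrimidines, was present in 12 members (21.1%), against 2.15% of all promoters. The annotated start is a weak guide to the true one, since it lay within 5 bases of the GENCODE start in 14 of the 57 members (24.6%), against 43.1% of all promoters.

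Other short motifs were searched on both strands of the whole window, and a match is a description of the letters, not of a bound site. The core of ETS factor sites, CCGGAAG, was found in 23 of 57 members (40.4%), against 12.4% of all promoters. The core of YY1 sites, GCCATNTT, was found in 10 members (17.5%), against 6.75%, and GGGCGG, the core of SP1 sites, in 34 (59.6%), against 48.5%. Both TATAAA, against 12.9% of all promoters, and the E box CACGTG, against 8.09%, were found in 5 members (8.77%).

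All 77 ribosomal protein genes had lower scaled counts in the library labelled P2x7-KO, and for each of them the whole counting interval lay below equality, which held for 34.7% of all genes tested. A count of 43 members was at least 2-fold lower, against 8.95% of all genes, and 0 were at least 2-fold higher, against 10.8% of all genes. In bulk RNA, fewer cells of a type and less RNA per cell cannot be told apart. Single members spread widely. Log2 ratios ran from -1.98 for Rps29 to -0.29 for Rpl4, a spread of 1.69, while the median width of a member's counting interval was 0.12 and the widest was 0.95. The members therefore differed from each other by more than counting error, with an SD of 0.36 over the 77 genes.

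**Figure D1:**
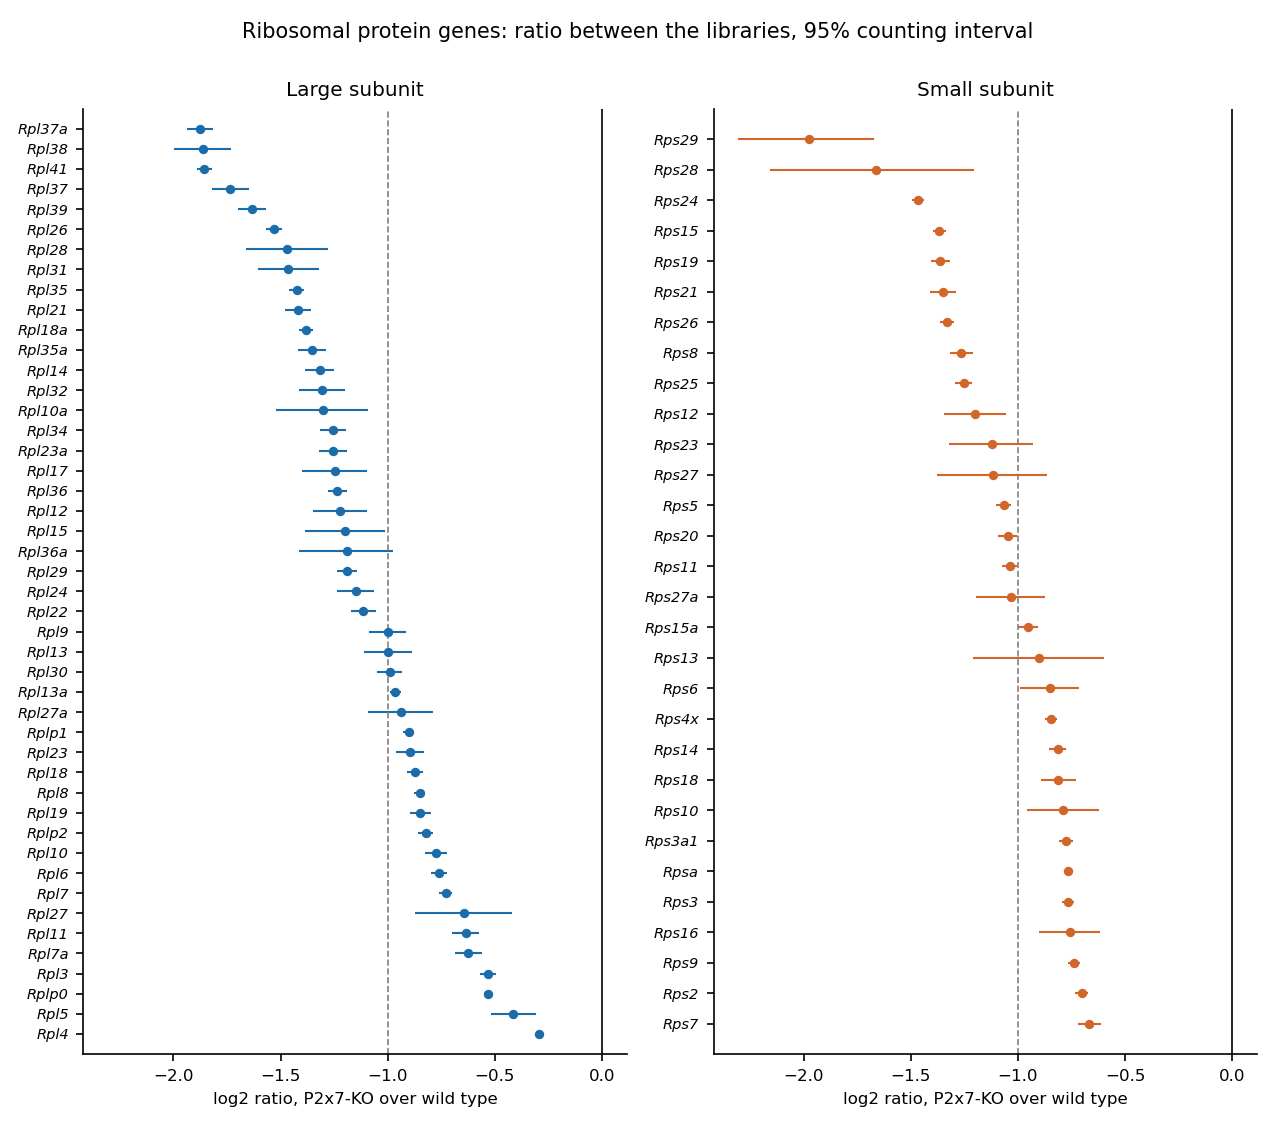
Log2 ratio, P2x7-KO over wild type, of large and small subunit genes, all but 1 of the members, ordered from lowest to highest. Points are ratios, bars are 95% counting intervals, the solid line is equality and the dashed line is the 2-fold line at -1. No interval shown reaches equality, and the ratios run from -1.98 (Rps29) to -0.29 (Rpl4).

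The lowest ratios belonged to the genes of some of the smallest proteins of the ribosome. Rps29, a zinc-binding protein of the small subunit head, had 106 counts in the library labelled P2x7-KO and 400 in the library labelled wild type, 3.95-fold lower (3.18 to 4.94). Rpl37a, a zinc-binding protein of the large subunit, had 2911 and 10203 counts in the libraries labelled P2x7-KO and wild type, 3.67-fold lower (3.52 to 3.82). Both are coded by short reading frames, of 56 residues for Rps29 and 92 for Rpl37a. The members lie on 19 chromosomes, 4 of them on X; Rps29 is on the minus strand at chr12:69157722-69159186 and Rpl37a on the plus strand at chr1:72711290-72713813, in the GENCODE annotation of GRCm38.

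Rpl38, known from mice with altered skeletal patterning, had 594 counts in the library labelled P2x7-KO against 2065 in the library labelled wild type. Rpl41, a peptide of 25 residues that sits between the subunits, had 8493 counts in the library labelled P2x7-KO against 29392 in the library labelled wild type. Rpl37, another zinc-binding protein of the large subunit, had 1399 counts in the library labelled P2x7-KO against 4446 in the library labelled wild type. These 3 genes were 3.64-fold (3.32 to 3.99), 3.62-fold (3.54 to 3.71) and 3.33-fold (3.13 to 3.54) lower, so the intervals of Rpl38 and Rpl41 overlap each other and that of Rpl37a.

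Below them in size of change, Rpl39, which lines the exit tunnel, had 2381 counts in the library labelled P2x7-KO and 7055 in the library labelled wild type (3.10-fold lower, 2.96 to 3.25). Rps28, of the small subunit head, was the least counted member, with 51 counts in the library labelled P2x7-KO and 155 in the library labelled wild type, and its interval was accordingly wide (3.18-fold lower, 2.30 to 4.46). Rpl26, at the exit of the tunnel, had 7192 counts in the library labelled P2x7-KO and 19855 in the library labelled wild type (2.89-fold lower, 2.81 to 2.97). Rps24, of the small subunit, had 13034 counts in the library labelled P2x7-KO and 34430 in the library labelled wild type (2.77-fold lower, 2.71 to 2.82). Apart from Rps28 and Rps29, these members had more than 500 counts in each library, so their ratios rest on many reads.

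At the other end, 4 members were less than 1.5-fold lower, while the other 73 were past that fold, as were 18.9% of all genes. Their proteins are among the longest of the ribosome. Rpl4, a long protein whose loop reaches into the exit tunnel, had 35204 counts in the library labelled P2x7-KO and 41169 in the library labelled wild type (1.22-fold lower, 1.21 to 1.24). Rpl5, which carries 5S ribosomal RNA, had 1343 counts in the library labelled P2x7-KO and 1709 in the library labelled wild type (1.33-fold lower, 1.24 to 1.43). Rplp0, the base of the stalk that recruits translation factors, had 40832 counts in the library labelled P2x7-KO and 56446 in the library labelled wild type (1.45-fold lower, 1.43 to 1.47). Rpl3, near the catalytic centre, had 9762 counts in the library labelled P2x7-KO and 13498 in the library labelled wild type, and its fold, 1.45 (1.41 to 1.49), cannot be told apart from that of Rplp0.

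The next 4 members were Rpl7a (1.54-fold lower), Rpl11 (1.55-fold), Rpl27 (1.56-fold) and Rps7 (1.59-fold). Their intervals overlap, with those of Rpl7a spanning 1.48 to 1.61 and of Rps7 1.53 to 1.65. Between the ends, 13 members lay within 0.1 of the 2-fold line on the log2 scale, among them Rpl9 and Rpl13 (both on the line to 2 decimals), Rpl30 (1.99-fold lower) and Rpl13a (1.95-fold). Under other scalings the count of members at least 2-fold lower ran from 38 to 45.

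Large and small subunit genes were compared next. The median log2 ratio was -1.17 over the 46 large subunit genes (quartiles -1.34 and -0.85) and -1.04 over the 31 small subunit genes (quartiles -1.26 and -0.80), a difference of -0.13. A count of 26 large subunit genes (56.5%) and 17 small subunit genes (54.8%) was at least 2-fold lower, against 8.95% of all genes. The ranges overlapped nearly whole, with large subunit genes between -1.88 and -0.29 and small subunit genes between -1.98 and -0.67. The 6 ratios nearest equality were all of large subunit genes, Rpl4, Rpl5, Rplp0, Rpl3, Rpl7a and Rpl11.

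Summed counts gave the opposite order of the subunits. Large subunit genes summed to 290307 counts in the library labelled P2x7-KO and 531657 in the library labelled wild type, 1.92-fold lower (1.91 to 1.93). Small subunit genes summed to 222743 and 422773 counts in the libraries labelled P2x7-KO and wild type, 1.987-fold lower (1.977 to 1.997). The large subunit thus made up 56.6% (95% exact binomial interval 56.4 to 56.7) of all member counts in the library labelled P2x7-KO and 55.7% (55.6 to 55.8) in the library labelled wild type. Sums weigh genes by their counts. Rplp0, of the large subunit, held 7.96% of all member counts in the library labelled P2x7-KO and 5.91% in the library labelled wild type. Rpl4, also of the large subunit, held 6.86% and 4.31% in those libraries, and Rpsa, of the small subunit, 6.29% and 5.49%. How far single genes set the order of the sums was not tested. With lengths and GC content of the transcripts adjusted for, the difference of medians was -0.15, and with coding length in place of transcript length it was -0.04.

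The levels of the members were compared per kb of transcript, since longer transcripts give more counts, and the order depends on the length used. The median level was 367 CPM per kb in the library labelled P2x7-KO and 821 CPM per kb in the library labelled wild type. Rplp1, a stalk protein, was highest in both per kb of transcript, with 2744 CPM per kb in the library labelled P2x7-KO and 5127 in the library labelled wild type. Per kb of coding sequence Rpl41 was highest in both, with 8893 CPM per kb in the library labelled P2x7-KO and 32216 in the library labelled wild type, against 4004 and 7481 for Rplp1 in the libraries labelled P2x7-KO and wild type. Per kb of transcript, the next levels in the library labelled P2x7-KO were those of Rplp0 (2361 CPM per kb), Rps15 (1816), Rpl4 (1798), Rps9 (1471) and Rpl8 (1464). In the library labelled wild type they were those of Rps15 (4682 CPM per kb), Rpl41 (4152), Rplp0 (3417), Rpl36 (3042) and Rps26 (2794). Rpl4 stood at rank 4 of the 77 per kb of transcript in the library labelled P2x7-KO and at rank 15 in the library labelled wild type, while Rpl41 stood at rank 13 and rank 3 in those libraries.

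Although the proteins are assembled in nearly equal numbers, the scaled counts per kb of transcript spread widely, by 299-fold in the library labelled P2x7-KO and 176-fold in the library labelled wild type. Rps28 was lowest in both, at 9.16 CPM per kb in the library labelled P2x7-KO and 29.2 in the library labelled wild type. Per kb of coding sequence the spread was 459.6-fold in the library labelled P2x7-KO, with Rps28 lowest, and 710.1-fold in the library labelled wild type, with Rps13 lowest, so which library spread more turned with the length used. Rps13 had 140 counts in the library labelled P2x7-KO and 250 in the library labelled wild type. Rows named as its pseudogenes had 2577 and 5064 counts in those libraries. The part of read assignment in these spreads was not tested. The order of CPM was much the same in both libraries, with a Pearson correlation of 0.99 and a Spearman correlation of 0.98 between log2 CPM over the 77 genes, which share their lengths and copies. The 10 most counted members held 44.6% of all member counts in the library labelled P2x7-KO and 38.9% in the library labelled wild type. Among the 100 mRNA genes with the most counts, 14 were members in the library labelled P2x7-KO and 30 in the library labelled wild type.

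**Figure D2:**
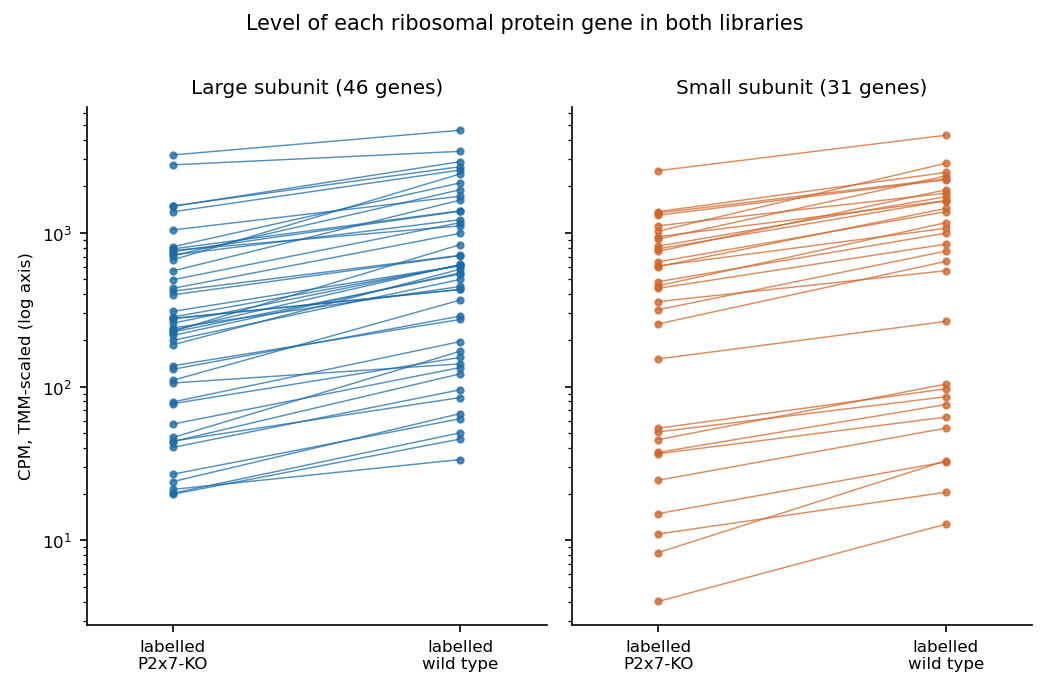
Level of each ribosomal protein gene in CPM on a log axis, in the library labelled P2x7-KO on the left of each panel and in the library labelled wild type on the right. Every line joins the same gene, and all 77 lines are lower on the P2x7-KO side, with the slope least for Rpl4 near the top.

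Grouped by place in the ribosome, the stalk and the 5S particle lay nearest equality. In the P stalk, which binds and activates elongation factors, 1 of 4 genes was at least 2-fold lower, against 8.95% of all genes tested. Rplp1 had 1369 CPM in the library labelled P2x7-KO and 2558 CPM in the library labelled wild type (1.87-fold lower), and Rplp2, its partner, had 786 and 1391 CPM in the libraries labelled P2x7-KO and wild type (1.77-fold lower). Rpl12, at the foot of the stalk, was the called one, with 57.0 CPM in the library labelled P2x7-KO and 133 CPM in the library labelled wild type (2.33-fold lower, 2.14 to 2.55). Neither Rpl5 nor Rpl11 was called, the pair that binds 5S ribosomal RNA and, outside the ribosome, the p53 regulator Mdm2. Rpl11 had 3511 counts in the library labelled P2x7-KO and 5212 in the library labelled wild type (1.55-fold lower, 1.49 to 1.62).

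Genes of the exit tunnel and its rim spanned almost the whole range. At least 2-fold lower were 6 of 8, against 8.95% of all genes, and the median log2 ratio was -1.34. Rpl23a, where nascent chain factors dock, had 226 CPM in the library labelled P2x7-KO and 540 CPM in the library labelled wild type (2.39-fold lower, 2.28 to 2.49). Rpl35, at the rim, had 710 CPM in the library labelled P2x7-KO and 1907 CPM in the library labelled wild type (2.68-fold lower, 2.62 to 2.75). Rpl31 and Rpl17 were 2.76-fold and 2.37-fold lower, beside Rpl26 and Rpl39 given above, while Rpl19 (1.80-fold) and Rpl4 stayed short of the line.

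Of the 14 listed genes of the small subunit head, which includes Rack1 outside the rule, 9 were at least 2-fold lower (8.95% of all genes were), with a median of -1.07. Rps15, near the decoding centre, had 11561 counts in the library labelled P2x7-KO and 28478 in the library labelled wild type (2.58-fold lower, 2.52 to 2.64). Rps25, needed by several viral internal ribosome entry sites, had 7684 counts in the library labelled P2x7-KO and 17511 in the library labelled wild type (2.39-fold lower, 2.32 to 2.45). Rps3, at the mRNA entry, was not called, with 16565 counts in the library labelled P2x7-KO and 26890 in the library labelled wild type (1.70-fold lower, 1.67 to 1.73). Rack1, a scaffold protein on the head, had 6866 counts in the library labelled P2x7-KO and 8470 in the library labelled wild type, 1.29-fold lower (1.25 to 1.33).

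Among 21 genes whose human counterparts are mutated in Diamond-Blackfan anaemia, 13 (61.9%) were at least 2-fold lower, with a median of -1.20. That share is close to the 55.8% of all 77 members, and 8.95% of all genes tested were called. Rps19, the gene most often mutated in that disease, had 5754 counts in the library labelled P2x7-KO and 14142 in the library labelled wild type (2.57-fold lower, 2.49 to 2.65). Rps26 had 9632 counts in the library labelled P2x7-KO and 23147 in the library labelled wild type (2.52-fold lower, 2.46 to 2.58). Rpl35a was 2.56-fold and Rpl15 2.30-fold lower. The 8 that were not called included Rpl5, Rpl11, Rps7 and Rpl27, and the list shares Rps24, Rps28, Rps29, Rpl26, Rpl31 and Rpl35 with the groups above, so it is no separate observation. Rps14, whose human counterpart lies in the region deleted in the 5q- form of myelodysplasia, had 608 CPM in the library labelled P2x7-KO and 1070 CPM in the library labelled wild type (1.76-fold lower, 1.71 to 1.81).

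Along the reading frame, ratio and length moved together. Over the 77 members the Spearman correlation of the log2 ratio with coding length was 0.67 (Pearson 0.75 with log2 length), and it was 0.67 over the large and 0.72 over the small subunit genes. Over 10776 other mRNA genes it was 0.29. All 9 members with a reading frame of up to 300 bases were at least 2-fold lower, with a median of -1.73. The counts were 19 of 27 members at 301 to 450 bases, with a median of -1.20, and 10 of 19 at 451 to 600 bases, with a median at the 2-fold line. They were 5 of 19 at 601 to 900 bases, with a median of -0.85, and 0 of 3 at 901 to 1500 bases. By protein length, 28 of 36 members of up to 150 residues and 15 of 41 longer ones were called, against 8.95% of all genes tested. The 3 members over 900 bases are too few to carry a trend on their own.

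Other mRNA genes showed the same order by coding length at a higher level. Their median was -0.57 up to 300 bases, where 26.3% of 217 genes were at least 2-fold lower, and -0.47 at 301 to 450 bases, where 21.4% of 524 were. It was -0.27 at 451 to 600 bases, with 8.43% of 676 genes called, and -0.15 at 601 to 900 bases, with 6.89% of 1495. At 901 to 1500 bases 5.5% of 3020 genes were called. Above 3000 bases the median was 0.43. In every length class that held members, the median of the members was lower than that of the other genes.

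**Figure D3:**
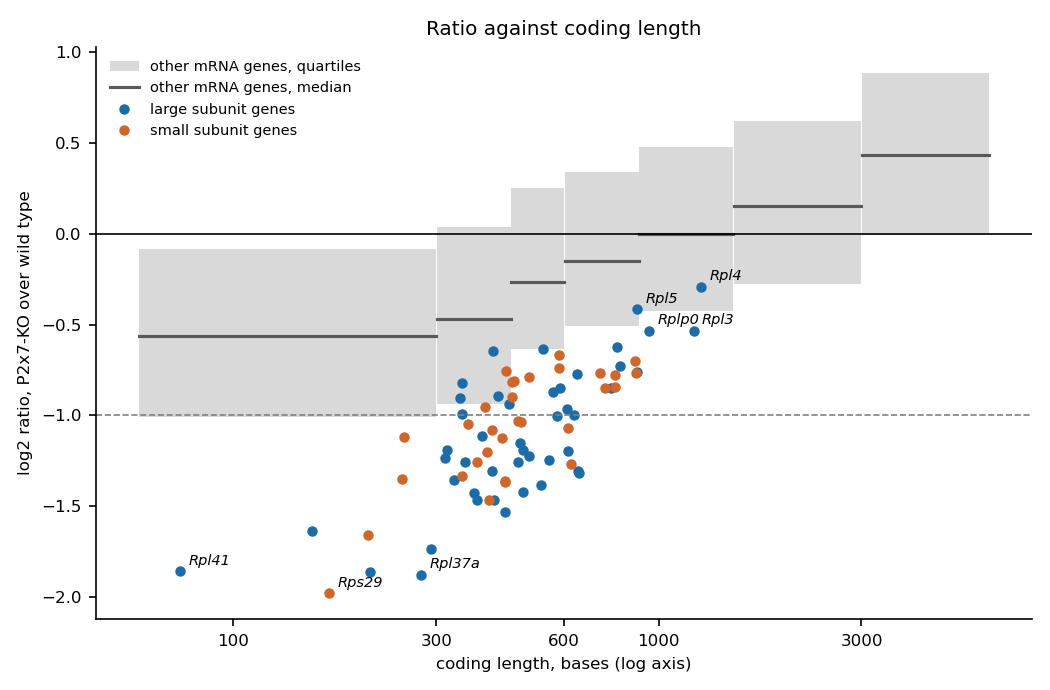
Log2 ratio, P2x7-KO over wild type, against coding length in bases on a log axis. Points are the large and small subunit genes, and grey boxes and bars give the quartiles and median of other mRNA genes by length class; short members have the lowest ratios, and member medians (-1.73 up to 300 bases) lie below those of other genes (-0.57).

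For whole transcripts, as GENCODE M21 gives them, the relation was weaker than for coding length over the members but stronger over the other mRNA genes. The Spearman correlation with transcript length was 0.40 over the members and 0.45 over other mRNA genes, and that with GC content was -0.07 over the members and -0.38 over the others. The trend with transcript length, fitted over genes other than the members, was then subtracted. After this, 15 members were at least 2-fold lower (6.03% of all genes), and 14 were with GC content subtracted too (5.5%). Both counts rest on the longest principal transcript of each gene. For Rps15a it has 5179 bases with a reading frame of 390, and for Rps20 3706 with one of 357. Rps15a, not called before (-0.95), was in both counts. With GC content, Rps15a had -1.45 by transcript length and -0.76 by coding length, and Rps20 -1.47 and -0.98. With coding length and GC content subtracted, a step added after the data were seen, 75 of 77 members stayed below 0, against 49.1% of all genes, and the median was -0.68. At least 2-fold lower were then 10 members, against 4.57% of all 10928 genes with both values. They were Rpl37a, Rpl37, Rpl15, Rps24, Rpl31, Rpl21, Rpl17, Rps29, Rpl14 and Rpl35a, with adjusted log2 ratios between -1.46 and -1.01. Rpl41, 3.62-fold lower before, had an adjusted value of -0.79, and Rpl38 one of -0.72. Rplp1 had an adjusted value of -0.08, and Rpl27 and Rps10 lay at 0.00 and 0.04. Of the groups above, 2 of 8 exit tunnel genes and 1 of 14 head genes were then at least 2-fold lower. So were 6 of 21 Diamond-Blackfan anaemia genes and 0 of 4 stalk genes, against the same 4.57% of all genes. The median of all genes after this adjustment was 0.01.

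Many ribosomal protein genes have processed pseudogenes, copies of their mRNA pasted elsewhere in the genome, which can share reads with them. The table holds 298 rows named as pseudogenes of the members, for 61 of the 77 genes, and 167 of these rows had a count. The labels do not say how reads that match several places were counted, so counts of members with such copies are uncertain. In all, pseudogene rows held 11.6% of member and pseudogene counts together in the library labelled P2x7-KO and 11.9% in the library labelled wild type. Among the 118 rows with at least 20 counts, 116 were below equality, against 49.8% of all genes. At least 2-fold lower were 57, against 8.95%, and 0 were at least 2-fold higher, against 10.8%, with a median of -1.02.

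For 14 members the pseudogene rows held more counts than the gene itself. Rps23 had 313 counts in the library labelled P2x7-KO and 652 in the library labelled wild type, while its pseudogene rows had 4960 and 10915 counts in the libraries labelled P2x7-KO and wild type. Rpl17 had 512 counts in the library labelled P2x7-KO and 1160 in the library labelled wild type, and its pseudogene rows had 4907 counts in the library labelled P2x7-KO and 11906 in the library labelled wild type. Adding the rows to their genes left these close, with Rps23 at 2.18-fold lower alone and 2.30-fold with its rows.

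Rpl10a and Rps10 moved most when their rows were added. Rpl10a had 258 counts in the library labelled P2x7-KO and 609 in the library labelled wild type, a log2 ratio of -1.30, and its pseudogene rows had 4091 counts in the library labelled P2x7-KO and 5414 in the library labelled wild type, which brought the sum to -0.54. Rps10 had 466 counts in the library labelled P2x7-KO and 770 in the library labelled wild type, a log2 ratio of -0.79, and -0.40 with its rows of 5564 counts in the library labelled P2x7-KO and 6811 in the library labelled wild type. For these members, then, the value depends on which rows are taken as the gene. Over the 46 members with at least 20 pseudogene counts, the Spearman correlation between the ratio of the gene and that of its rows was 0.56, and the rows may share reads with the gene. With all rows added, 44 members in place of 43 were at least 2-fold lower. In addition, 21 members overlap a gene on the other strand, among them Rpl3, Rpl5 and Rps28, and with the strand setting not stated their reads cannot be told apart from those of the partner.

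**Figure D4:**
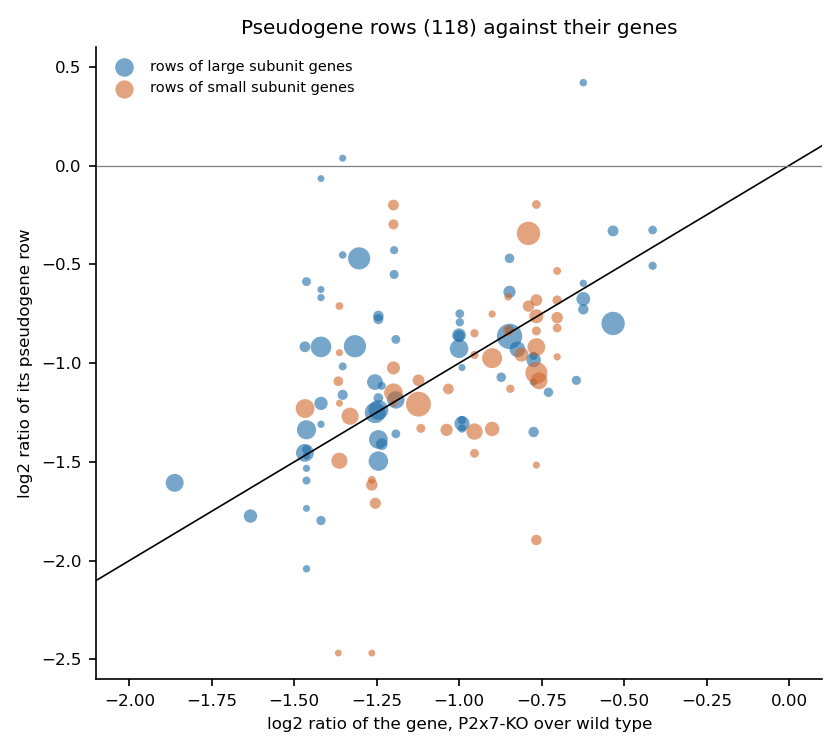
Log2 ratio, P2x7-KO over wild type, of each of 118 pseudogene rows with at least 20 counts, against that of the gene it is named after. Point area grows with the counts of the row and the diagonal marks equal ratios; 116 of the rows lie below 0, and the large blue and orange points above the diagonal include those of Rpl10a and Rps10.

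Ribosomal proteins and paralogues that the naming rule leaves out also had ratios below 1, all 9 of those with enough counts, against 49.8% of all genes. For Rpl3l, with 25 counts in the library labelled P2x7-KO and 34 in the library labelled wild type, the interval included equality. Rps27a, a fusion with ubiquitin and a member, had 475 counts in the library labelled P2x7-KO and 929 in the library labelled wild type (2.05-fold lower, 1.83 to 2.29). Fau, a ubiquitin-like fusion with the small subunit protein S30, had 505 counts in the library labelled P2x7-KO and 946 in the library labelled wild type (1.96-fold lower). Both of these fusions were near the 2-fold line.

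Of the paralogues, Rps27rt had 466 counts in the library labelled P2x7-KO and 1394 in the library labelled wild type, 3.13-fold lower. Rpl22l1, the paralogue of Rpl22, had 652 counts in the library labelled P2x7-KO and 1520 in the library labelled wild type (2.44-fold lower), close to the 2.16-fold of Rpl22 itself. Rps27l, a p53 target, had 521 counts in the library labelled P2x7-KO and 1161 in the library labelled wild type (2.33-fold lower). Rpl7l1 had 1561 counts in the library labelled P2x7-KO and 1717 in the library labelled wild type and was nearest equality, 1.15-fold lower. Rpl39l and Rpl10l, known from the male germ line, had 0 counts in both libraries, under limits of 0.236 CPM in the library labelled P2x7-KO and 0.247 CPM in the library labelled wild type that a count of 0 allows. Of the noncoding rows with matching names, Rps3a3 was 2.02-fold and Rps3a2 1.70-fold lower, beside Rps3a1 at 1.71-fold.

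Other genes of translation lay closer to equality. Mitochondrial ribosomal proteins, which build the separate ribosome of that organelle, were below 0 in 76 of 77 genes and at least 2-fold lower in 9 (11.7%, near the 8.95% of all genes), with a median of -0.68. Of 21 other mRNAs with a TOP tract, 18 were below 0 and 2 (9.52%, about the share of all genes) were called, Eef1g among them, with a median of -0.37. Eef1g, a subunit of the complex that reloads elongation factor 1, had 3524 counts in the library labelled P2x7-KO and 6769 in the library labelled wild type (2.01-fold lower), while Eef2, the translocation factor, had 62985 and 61328 counts in the libraries labelled P2x7-KO and wild type (log2 ratio -0.03). Vim, which codes for vimentin, was highest in that list, at 0.45. The list shares Fau and Rack1, among others, with the ribosome itself.

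Initiation and release factors were at least 2-fold lower in 0 of 27 genes (8.95% of all genes were), with 21 below 0 and a median of -0.40. Their ratios ran from -0.91 for Eif1, the factor of start codon choice, to 0.46 for Eif2s3x, a subunit of the factor that brings the initiator tRNA. Among 49 genes of ribosome biogenesis that were tested, 39 were below 0 and 3 (6.12%, against 8.95% of all genes) were at least 2-fold lower, with a median of -0.31. These 3 were Nop10 (-1.61), of the pseudouridylation complex, Nop56 (-1.23), of the methylation complex, and Rrp9 (-1.13). Below 0 were 49.8% of all genes tested, whose median was 0.00. After the same adjustment for coding length and GC content, the medians were -0.68 for the members, -0.41 for mitochondrial ribosomal proteins, -0.33 for the other TOP mRNAs, -0.38 for the factors and -0.57 for ribosome biogenesis, so the lists then lay closer together.

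**Figure D5:**
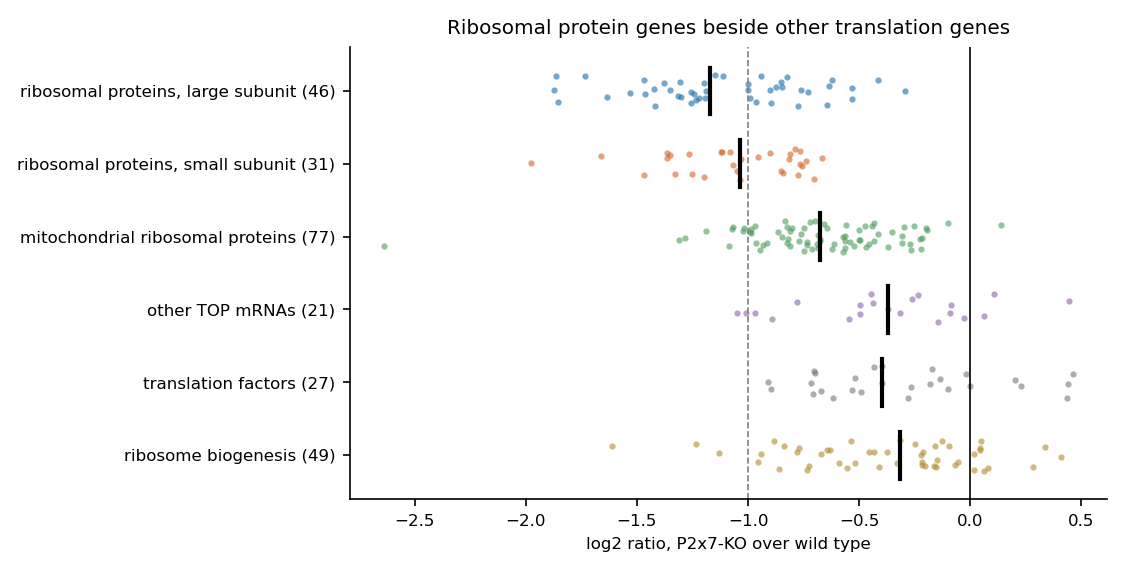
Log2 ratio, P2x7-KO over wild type, of each gene of the ribosomal protein genes and of 4 other translation lists, with the number of genes tested in brackets. Points are genes, black bars are medians, and the dashed line is the 2-fold line; the medians of the large (-1.17) and small (-1.04) subunit lie furthest below 0, followed by mitochondrial ribosomal proteins (-0.68).

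Markers of other blood cells also differed between the libraries. Monocyte and macrophage markers summed to 4854 CPM in the library labelled P2x7-KO and 2130 CPM in the library labelled wild type, with 6 of 8 genes at least 2-fold higher, against 10.8% of all genes. Mast cell and basophil markers summed to 40.1 CPM in the library labelled P2x7-KO and 379 CPM in the library labelled wild type, with 2 of the 4 tested genes, Cpa3 and Hdc, at least 2-fold lower (8.95% of all genes were) and Fcer1a at 0 in both. Neutrophil markers summed to 2775 and 3339 CPM, B lineage markers to 99.3 and 132 CPM and T and NK markers to 10.7 and 25.5 CPM in the libraries labelled P2x7-KO and wild type. Single genes went both ways. Of the 6 tested neutrophil markers, 1 was at least 2-fold higher and 1 lower. Of the 4 tested B lineage markers, 2 were at least 2-fold higher and 1 lower. Among all genes, 10.8% were at least 2-fold higher and 8.95% lower. Megakaryocyte markers summed to 9.42 CPM in the library labelled P2x7-KO and 39.2 CPM in the library labelled wild type, with Pf4 and Ppbp at 0 in both. Erythroid markers summed to 11.2 CPM in the library labelled P2x7-KO and 1.32 CPM in the library labelled wild type. The part of these cell types in the ratios of the ribosomal protein genes was not tested.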

How the data were processed

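RNA was sequenced in 2 libraries of sorted mouse leukaemia cells, 1 per genotype label. The deposited table holds raw read counts per gene for 46095 rows, and both value columns were used (0 left out). The aligner HISAT2 2.0.4 and the build mm10 come from the submitters' processing notes. For the counter, its annotation, its strand setting and its handling of multiply matched reads, nothing was stated in the sources used here.

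The rule for the members uses names only, but members, lists and alternatives were chosen with earlier results of these data known. Counts were scaled by TMM (edgeR 4.0.16 in R 4.3.3). Each ratio, P2x7-KO over wild type, has an exact 95% Clopper-Pearson counting interval, and log2 ratios have 0.5 added to each count. Reads are not independent molecules. With 1 library per group no model of the spread could be fitted. Genes with under 20 counts were left out of the calls. Lengths, GC content and overlaps came from GENCODE M21 (GRCm38), with the longest principal transcript per gene. Length adjustment subtracted a spline with 5 degrees of freedom fitted over all tested genes with both values other than the members. Pseudogene rows were taken by name (the member's symbol followed by -ps). Promoters came from RefSeq GRCm38.p6. Every member could be named, with full values for the lowest and highest ratios, the highest levels and the role groups; other genes came from 18 lists with 217 entries, of which 3 names were not found. The calculations, in Python 3.11.15 with scipy 1.17.1 and patsy 1.0.2, were tested on simulated data. Alternatives were other scalings (including DESeq2 1.42.0 size factors), count minimums, pseudocounts, fold thresholds and length adjustments, and the adjustments and levels by coding length were added after seeing the data. Some genes that were analysed are not reported here.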

Additional observations from a re-analysis of the deposited data

How the results depend on the processing

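No paired analysis was possible because each group holds 1 library, and no library could be left out. All 77 members kept their direction under the other scalings, count minimums and pseudocount and with pseudogene rows added. The log2 ratio of the summed counts, -0.96, was -0.89 with total count scaling, -0.92 with DESeq2 size factors, -0.99 with upper quartile scaling, -0.99 with TMM without ribosomal protein and mitochondrial genes, and -0.97 with pseudogene rows added. The count of 43 members at least 2-fold lower was 38, 41, 45, 45 and 44 under these settings and 73 for 1.5-fold, which 18.9% of all genes passed. It was 15 after adjustment for transcript length (6.03% of all genes), 14 for transcript length and GC content (5.5%) and 10 for coding length and GC content (4.57%). In that order the medians were -0.60, -0.65 and -0.68 for all members, -0.65, -0.72 and -0.71 for the large subunit and -0.59, -0.58 and -0.67 for the small subunit. Rpl27 (0.0017) and Rps10 (0.041) changed sign under the last; by construction it removes what goes with length and GC content, and a further cause was not tested. The median level per kb was 136 CPM in the library labelled P2x7-KO and 301 CPM in the library labelled wild type over the union of exons, and 672 and 1369 CPM over coding length. Depth limits Rps28, Rps29, Rps13, Rps27, Rpl10a, Rpl27 and Rpl36a most, which had under 300 counts in the library labelled P2x7-KO.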
